A study of Homo sapiens with 12 samples.

Results

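The extracellular matrix genes of SH-SY5Y cells were examined as 1 family of 66 gene symbols out of the 55765 counted. A gene belonged to the family when its symbol had the form of a collagen alpha chain (44 genes) or of a laminin alpha, beta or gamma chain with a 1-digit number (12 genes), or when it was 1 of 10 further genes, the nidogens NID1 and NID2, the proteoglycans HSPG2 and AGRN, fibronectin (FN1), the fibrillins FBN1 and FBN2, SPARC, and the crosslinking enzymes LOX and LOXL2. The rule itself used no measured value, but the family was chosen with earlier results of these data known. All 66 had at least 1 read in at least 1 library, and 36 averaged more than 1 CPM (reads per 1e+06 reads on genes) over the 6 control libraries.

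SH-SY5Y is a human neuroblastoma line that stops dividing and grows neurites under all-trans retinoic acid (ATRA), and total RNA was sequenced from 12 libraries of it, each made after 7 days of ATRA. In the co-treatment experiment, 3 treated libraries came from cells given H2O2 together with ATRA and 3 control libraries from cells given ATRA without H2O2. In the pre-treatment experiment, 3 treated libraries came from cells exposed to H2O2 in the 72 h before ATRA and 3 control libraries from cells that received ATRA without that exposure. The H2O2 dose stands as 10 mM in the description deposited with the data and as 10 μM in the study's methods, so the dose behind the values below is uncertain. All cells are of 1 line and of tumour origin. The labels number the libraries of a group without saying that they came from separate cultures, so the p-values below measure the spread between these libraries, which may be technical.

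Basement membranes are thin sheets of matrix in which laminin trimers, each of an alpha, a beta and a gamma chain, and type IV collagen form 2 networks that nidogens and heparan sulfate proteoglycans such as perlecan (HSPG2) and agrin (AGRN) hold together. Fibrillar collagens (types I, III and V among them) and the beaded filaments of type VI collagen lie outside that sheet with fibronectin and fibrillin. In neural tissue, laminins are substrates on which neurites grow, and agrin organises the synapse between motor nerve and muscle.

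Between 27576276 and 98287391 reads were counted on genes per library. Pre-treatment controls 1 and 2 stood apart from control 3 and from the other libraries. Controls 1 and 2 had 0.80 and 0.83 reads outside annotated genes for each read on a gene, control 3 had 0.20, and the treated libraries had 0.34 to 0.46. Small RNA loci took 1.58% and 2.88% of the reads on genes in controls 1 and 2, 17.6% in control 3 and 13.3% to 15.0% in the treated libraries. Pre-treatment results are therefore given over 5 libraries (controls 1 and 2, the libraries that the study clustered, against 3 treated). Many are also given over all 6 and, where it matters, against control 3 alone. Neuronal markers (TUBB3, ENO2, MAP2, MAPT and SV2A) summed to 1100 to 1601 CPM in every library, while endothelial markers stayed at or below 0.509 CPM in sum and leukocyte markers at or below 1.48 CPM.

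COL4A1 and COL4A2, the core chains of type IV collagen, are read in opposite directions, and the sequence between the starts of their canonical transcripts (110959504 on the minus strand for COL4A1 and 110959631 on the plus strand for COL4A2) is given, as far as it holds no annotated exon, because COL4A1 was called after pre-treatment and COL4A2 was not. An alternative transcript of COL4A2 starts further back, inside COL4A1, and spans this stretch with an intron. The sequence was read from the GRCh37 genome, the build of the files (hg19), on the plus strand. Capitals mark matches to GGGCGG (the GC box), CCAAT (the CCAAT box) or TATAAA (the TATA box), each searched on both strands. The matches do not overlap each other.
COL4A1 to COL4A2, chr13:110959505-110959604: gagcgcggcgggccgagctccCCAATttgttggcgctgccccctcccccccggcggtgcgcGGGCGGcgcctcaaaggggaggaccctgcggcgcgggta

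The COL4A1 to COL4A2 interval was 78.0% G and C with 1 GC box, 1 CCAAT box and no TATA box. RefSeq promoter windows of assembly GRCh38.p14 (250 bases before the start to 50 after it) were given for 49 of the 66 genes. Of these, 67.3% held GGGCGG against 48.3% of 27305 genes with such a window, 38.8% held CCAAT against 39.7%, and 14.3% held TATAAA against 14%. These are matches of letters and no measure of factor binding.

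The matrix these cells transcribed under ATRA was led by laminin chains and COL6A2, with the fibrillar collagens lower. Levels of different genes were compared per transcript length, as FPKM (CPM per kilobase of the canonical transcript), over the 6 control libraries. LAMB1, the beta 1 chain of laminin, led with 65.5 FPKM (range 58.0 to 71.1), followed by COL6A2, a chain of type VI collagen, with 55.8 FPKM (44.1 to 74.8). These ranges overlap. SPARC, a secreted protein that binds collagen, came next with 34.4 FPKM (24.8 to 44.5), beside LAMC1, the gamma 1 chain, with 32.7 FPKM (25.7 to 39.9) and LAMB2, the beta 2 chain, with 23.4 FPKM (18 to 28.3). Neighbours in this order overlapped in range.

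COL9A2, a collagen of fibril surfaces, had 9.63 FPKM (7.15 to 10.8), and COL23A1, a transmembrane collagen, had 9.15 FPKM (5.52 to 13.1). The same tier held fibronectin at 15.5 FPKM (7.94 to 27.4), nidogen 1 at 14.6 FPKM (6.24 to 24.2), the laminin alpha 4 chain LAMA4 at 13.4 FPKM (11.5 to 15.9), COL6A1 at 13.1 FPKM (7.48 to 19.6), the laminin alpha 5 chain LAMA5 at 9.33 FPKM (3.33 to 19.8), fibrillin 1 at 8.08 FPKM (5.92 to 11.2) and agrin at 7.39 FPKM (3.1 to 14.9). Nidogen 2 was lower, at 1.14 FPKM (0.778 to 1.65), below the lowest value of nidogen 1. The network collagens COL4A1 and COL4A2 stood at 1.53 FPKM (0.561 to 3.12) and 2.41 FPKM (0.801 to 4.72). Of the fibrillar collagens, COL3A1, the chain of type III collagen, had 4.10 FPKM (2.36 to 7.03), COL11A1 had 2.56 FPKM (1.91 to 3.39), COL5A2 had 0.965 FPKM (0.565 to 1.28), COL5A1 had 0.388 FPKM (0.166 to 0.674) and COL1A1 had 0.135 FPKM (0.0313 to 0.272). In the 6 control libraries COL1A2, the partner chain of COL1A1 in type I collagen, had 0 to 5 raw reads, COL4A5 had none, and FBN2, fibrillin 2, had none.

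**Figure D1:**
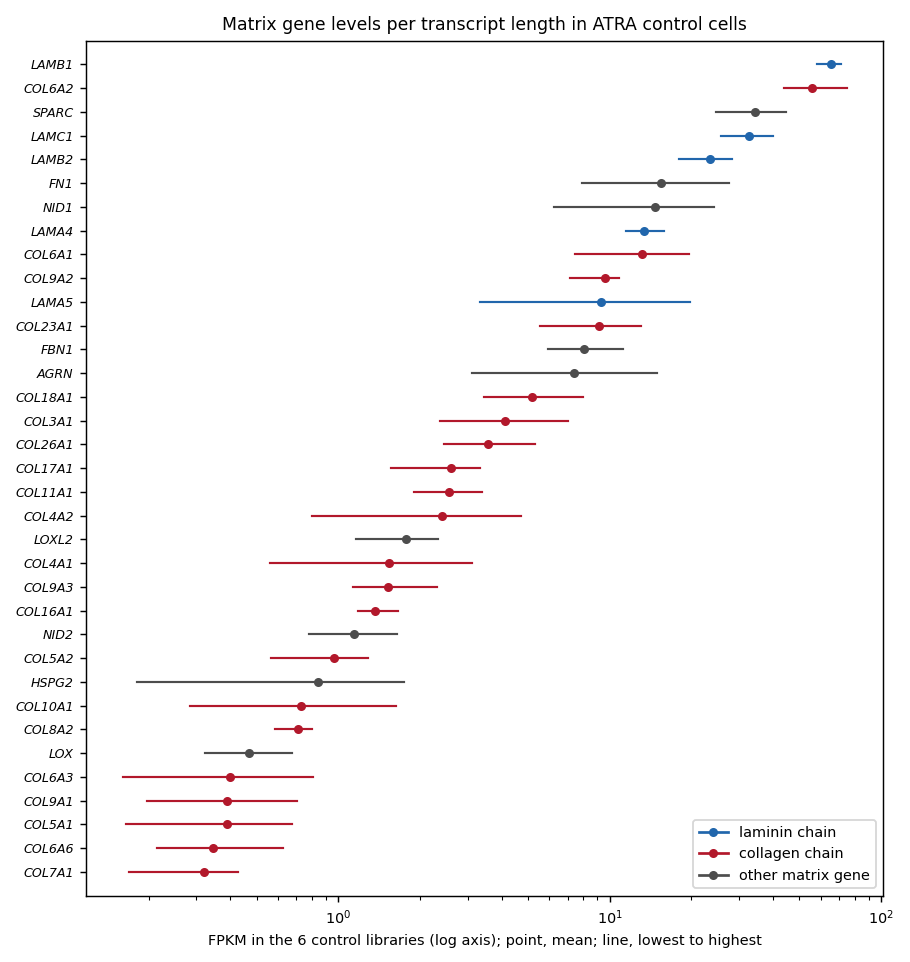
FPKM (log axis) of the 35 family members that averaged at least 0.3 FPKM, as the mean (point) and the lowest to highest value (line) over the 6 control libraries, in blue for laminin chains, red for collagen chains and grey for the other genes. Laminin chains LAMB1, LAMC1 and LAMB2 and the collagen chain COL6A2 sit at the top, and the lines of LAMA5, HSPG2, COL4A1 and COL4A2 are among the long ones.

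The laminin chains were unequal in sum. In each of the 12 libraries the beta chains summed to 76.2 to 99.7 FPKM, the gamma chains to 24.8 to 40.0 FPKM and the alpha chains to 10.2 to 32.7 FPKM. Nearly all of the alpha sum was LAMA4, the alpha chain known from vessels and peripheral nerve, with 38.8% to 81.4%, and LAMA5, the alpha chain of most mature basement membranes, with 17.9% to 60.5%. LAMA1, LAMA2 and LAMA3 made up the remainder. The share of LAMA5 was 45.4% and 60.5% in pre-treatment controls 1 and 2 and 47.9% in co-treatment control 1, against 17.9% to 37.4% in the other 9 libraries.

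The level of many members depended on the control library. Over the 6 control libraries the highest CPM was a median of 2.30 times the lowest for the 36 members above 1 CPM, compared with 1.75 times for 15774 genes at such levels. LAMB1 was steady, with 402, 369 and 367 CPM in the co-treatment controls and 385, 371 and 328 CPM in the pre-treatment controls. HSPG2, perlecan, was at 12.9, 4.41 and 3.79 CPM in co-treatment controls 1 to 3 and at 25.1, 23.7 and 2.61 CPM in pre-treatment controls 1 to 3. LAMA5, NID1, AGRN, COL18A1, COL6A1, LAMB2, LAMC1 and HSPG2 all had their 3 highest values among the 12 libraries in the same 3 of them, co-treatment control 1 and pre-treatment controls 1 and 2. That was 8 of 37 members averaging above 1 CPM over the 12 libraries (21.6%), against 9.65% of 15786 genes.

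**Figure D2:**
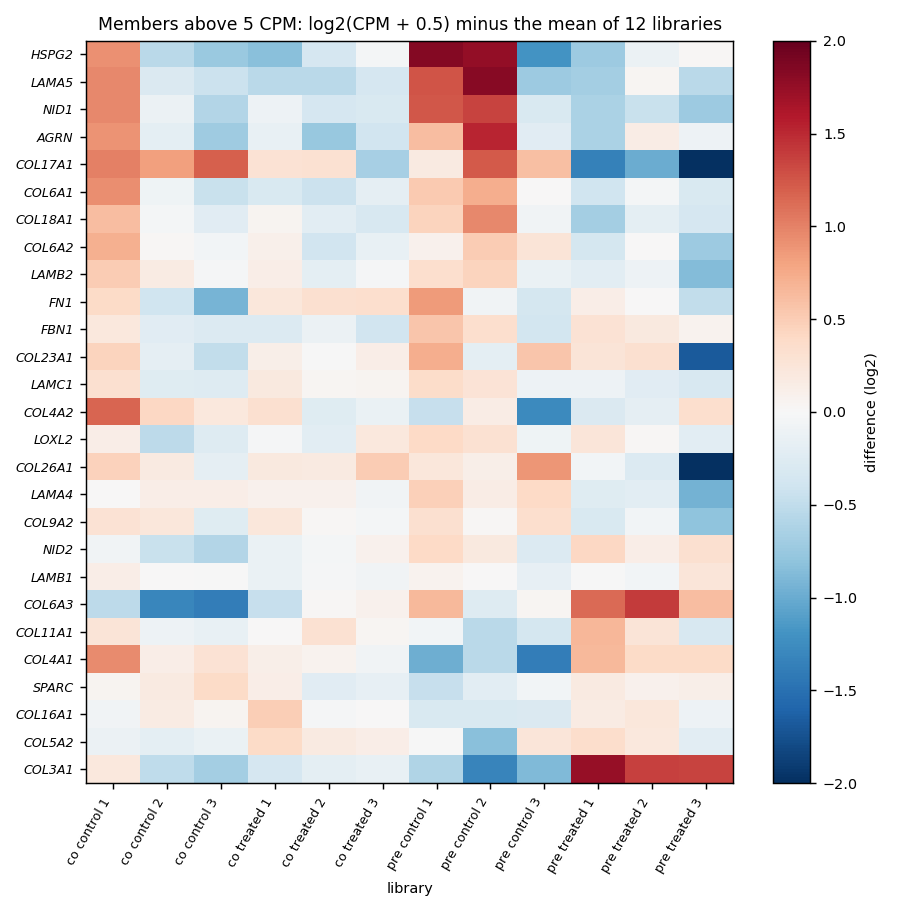
The 27 members above 5 CPM on average (vertical) in the 12 libraries (horizontal), coloured by log2(CPM + 0.5) minus the mean of that gene over the 12 libraries, red for above and blue for below. Columns co control 1, pre control 1 and pre control 2 are red for HSPG2, LAMA5, NID1 and AGRN, and the 3 pre treated columns are red for COL3A1 and COL6A3.

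The co-treatment comparison asked what H2O2 given together with ATRA did to these genes. No member was called among 47 tested, where a call needed an absolute log2FC above 0.6 and an FDR below 0.05 in edgeR's quasi-likelihood test with Benjamini-Hochberg adjustment over all 22089 genes tested, of which 0.598% were called. At an unadjusted p below 0.05 stood 10 members (21.3%, against 8.15% of all genes), and DESeq2 called 3 members and edgeR's exact test 2, which are named beside their values. The median log2FC was -0.10 over the members and -0.00095 over all genes tested. The treated libraries lay all above the controls for 3 members (6.38%, against 6.66% of all genes) and all below for 4 (8.51%, against 7.31%).

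Among the basement membrane collagens, COL17A1, a transmembrane collagen that anchors epithelial cells to the sheet, was at 16.1, 14.1 and 18.3 CPM in the controls and at 9.59, 9.63 and 4.67 CPM in the treated libraries. The groups did not overlap, and the log2FC was -1.02 (SE 0.25, FDR 0.119 by edgeR). COL4A1 had 20.4, 11.3 and 12.8 CPM in the controls and 11.2, 10.9 and 9.87 CPM in the treated libraries, a log2FC of -0.48 (SE 0.21, FDR 0.577). Its partner COL4A2 had 30.5, 17.8 and 15.4 CPM in the controls and 16.6, 11.1 and 12 CPM in the treated libraries, a log2FC of -0.69 (SE 0.24, FDR 0.408). For both, co-treatment control 1 was the high library.

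The alpha 3 and alpha 6 chains of type VI collagen stood higher in the treated libraries without passing the threshold in edgeR's quasi-likelihood test. DESeq2 called COL6A3, COL6A6 and COL17A1, and edgeR's exact test called COL6A6 and COL17A1. COL6A3 had 3.47, 1.82 and 1.69 CPM in the controls and 3.66, 5.33 and 5.61 CPM in the treated libraries, with a log2FC of 1.06 (SE 0.30, FDR 0.217). COL6A6 had 3.55, 2.35 and 1.86 CPM in the controls and 4.48, 9.31 and 6.71 CPM in the treated libraries, with a log2FC of 1.40 (SE 0.30, FDR 0.0693 by edgeR). In both genes the groups did not overlap, while COL6A1 and COL6A2, the chains with the higher levels, had log2FC values of -0.57 (SE 0.28, FDR 0.651) and -0.40 (SE 0.20, FDR 0.655).

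The laminins and their linkers showed no call. LAMB4, a beta chain of low level, had a log2FC of 1.18 (SE 0.41, FDR 0.387) with overlapping groups. LAMB1 had 402, 369 and 367 CPM in the controls and 336, 363 and 349 CPM in the treated libraries, with all treated values lower and a log2FC of -0.12 (SE 0.12, FDR 0.881). LAMA5 had a log2FC of -0.71 (SE 0.29, FDR 0.540), NID1 of -0.49 (SE 0.30, FDR 0.763), HSPG2 of -0.48 (SE 0.40, FDR 0.847) and AGRN of -0.58 (SE 0.32, FDR 0.732). Without co-treatment control 1, the log2FC of NID1 was 0.09, of HSPG2 0.30, of AGRN 0.02 and of LAMA5 -0.11. Fibronectin, which links cells to collagen through integrins, had 166, 95.7 and 66.6 CPM in the controls and 148, 159 and 160 CPM in the treated libraries. The groups overlapped, with a log2FC of 0.51 (SE 0.25, FDR 0.655). Without co-treatment control 1, fibronectin was called with the treated libraries higher, as were COL6A3 and COL6A6.

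The pre-treatment comparison asked what H2O2 given before ATRA left behind after 7 days of differentiation. Over 5 libraries, 10 of 53 members tested were called (FDR below 0.05, absolute log2FC above 1; 18.9%, against 11.2% of 26350 genes), 3 of them higher (5.66%, against 2.98%) and 7 lower (13.2%, against 8.23%). The genes called higher were COL3A1, COL4A1 and COL6A5, all collagen chains, of which COL6A5 passed the filter on low counts (0.120 CPM) only through the treated libraries, so that 9 calls do not rest on that filter. Those called lower were NID1, HSPG2, LAMA5, AGRN, COL18A1, COL17A1 and COL4A4. Against controls 1 and 2, the treated libraries lay all above for 9 members (17.0%, against 27.9% of all genes) and all below for 20 (37.7%, against 29.9%). Over all 6 libraries, COL3A1 was the only call among 51 members tested by quasi-likelihood (1.96%, against 0.0242% of 24743 genes). By the same test, 18 members stood at an unadjusted p below 0.05 (35.3%, against 11.2%). The result depended on the test, since DESeq2 called COL4A1, COL17A1 and NID1 as well. The exact test of edgeR added COL6A5 to those. The treated libraries lay all above the 3 controls for 8 of these 51 members (15.7%, against 8.45% of all genes) and all below for 9 (17.6%, against 7.93%). Median log2FC was -0.01 over 5 libraries and 0.04 over 6, against 0.01 and -0.01 over all genes. In these bulk libraries, fewer cells that make a transcript and less of it in each cell cannot be told apart.

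COL3A1 (chr2:189839099-189877472, plus strand), the single chain of type III collagen, had 21.7, 13 and 17.9 CPM in pre-treatment controls 1 to 3 and 112, 86.9 and 85.9 CPM in the treated libraries. Every treated value was well above every control of either experiment, among which the highest was 38.6 CPM. The mean rose from 17.5 ± 4.4 to 95 ± 15 CPM (SD, n = 3). The log2FC was 2.48 over 5 libraries (SE 0.24, FDR 0.000985 by edgeR), 2.44 over 6 (SE 0.24, FDR 0.0442) and 2.40 against control 3 alone (SE 0.23, FDR 0.0356, an alternative chosen after the data were seen, in which the lone control is assumed to vary like the treated libraries). The call over 6 libraries was lost with scaling by library size only (log2FC 2.37, FDR 0.118) and when any pre-treatment library other than control 3 was left out (log2FC 2.25 to 2.62). In the co-treatment experiment the log2FC of COL3A1 was 0.05 (SE 0.20, FDR 0.982).

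The difference between the pre-treatment and co-treatment responses of COL3A1 was 2.38 on the log2 scale over 11 libraries (SE 0.34, FDR 0.00680) and 2.36 over 12 (SE 0.33, FDR 0.0353), by edgeR's quasi-likelihood test. Over 12 libraries the call was lost with scaling by library size only (2.28, FDR 0.138) and when any 1 of 8 libraries was left out (co-treatment control 2, the 3 co-treated, pre-treatment control 2 and the 3 pre-treated), at 2.22 to 2.52. Pre-treatment control 3 was left out of the 11. Of 52 members tested over 11 libraries, 5 differed (9.62%, against 8.02% of 25668 genes), 4 with the higher value in pre-treatment (7.69%, against 3.32%) and 1 with the lower (1.92%, against 4.70%). Over 12 libraries, COL3A1 alone of 49 differed (2.04%, against 0.0287% of 24407 genes, with 0.0246% higher and 0.00410% lower), and 8 stood at an unadjusted p below 0.05 (16.3%, against 8.94%). The neighbouring fibrillar chain COL5A2 had 7.29, 3.86 and 8.77 CPM in the pre-treatment controls and 9.50, 8.54 and 6.26 CPM in the treated libraries, overlapping groups. COL1A1 had 1.12, 1.16 and 0.185 CPM in those controls and 0.376, 0.636 and 0.606 CPM in the treated libraries. COL1A2 had 1 read in each control and 19, 5 and 20 reads in the treated libraries. The ratio for the 3 libraries against the 3 was 10.2 (95% interval 3.25 to 51.1, for counting error only). Over 5 libraries COL1A2 passed the filter on low counts only through the treated libraries. It was not called there by the quasi-likelihood test (FDR 0.0534), although edgeR's exact test called it. Over 6 libraries it was not tested.

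COL4A1 (chr13:110801310-110959504, minus strand), a core chain of the type IV collagen network, had 4.99, 6.97 and 3.67 CPM in the pre-treatment controls and 16.5, 13.6 and 13.6 CPM in the treated libraries. The groups did not overlap, and the log2FC was 1.32 over 5 libraries (SE 0.21, FDR 0.00439 by edgeR), 1.49 over 6 (SE 0.26, FDR 0.250) and 1.99 against control 3 alone (SE 0.25, FDR 0.0694). The treated values lay inside the range of the co-treatment controls, 11.3 to 20.4 CPM. COL4A2 (chr13:110958159-111165556, plus strand, all transcripts), whose canonical transcript starts beyond the stretch given above, had 9.47, 14.8 and 5.17 CPM in the pre-treatment controls and 10.8, 11.6 and 16.9 CPM in the treated libraries. The COL4A2 groups overlapped, with a log2FC of 0.14 over 5 libraries (SE 0.26, FDR 0.715) and 0.42 over 6 (SE 0.37, FDR 0.685). Set against control 3 alone, the mean log2 CPM of the treated libraries was 1.31 higher for COL4A2 and 1.97 higher for COL4A1. Both chains thus stood above control 3, and the contrast between them depended on the controls used.

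The ratio of COL4A1 to COL4A2 CPM within a library was 0.53, 0.47 and 0.71 in the pre-treatment controls and 1.53, 1.17 and 0.81 in the treated libraries, all above the controls. In the co-treatment experiment it was 0.67, 0.64 and 0.83 in the controls and 0.68, 0.98 and 0.82 in the treated libraries, with overlap. A two-sided exact permutation test of the pre-treatment ratios gave p = 0.1, the smallest that 3 libraries against 3 allow, and 0.25 after adjustment over 10 tests of such ratios. The difference between the responses of COL4A1 was 1.74 over 11 libraries (SE 0.32, FDR 0.00979 by edgeR) and 1.94 over 12 (SE 0.36, FDR 0.172).

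Within type VI collagen the chains differed in the sign of their log2FC. COL6A3, the long chain of the classical trimer, had 8.48, 4.31 and 5.40 CPM in the pre-treatment controls and 12.1, 14.5 and 8.28 CPM in the treated libraries, with a log2FC of 0.88 over 5 libraries (SE 0.33, FDR 0.0782 by edgeR) and 0.94 over 6 (SE 0.31, FDR 0.338). COL6A1 had 62.1, 71.3 and 43.1 CPM in the controls and 32.3, 41.9 and 34.8 CPM in the treated libraries, with a log2FC of -0.85 over 5 libraries (SE 0.14, FDR 0.00506, under the threshold on fold) and -0.69 over 6 (SE 0.22, FDR 0.320). COL6A2 had 167, 225 and 190 CPM in the controls and 123, 158 and 95 CPM in the treated libraries, with a log2FC of -0.62 over 5 libraries (SE 0.21, FDR 0.0602) and -0.63 over 6 (SE 0.22, FDR 0.358). For COL6A1 and COL6A2 every treated value was below every control.

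Per length, COL6A3 was a small share of COL6A2 throughout. The ratio of their FPKM was 0.0166, 0.00627 and 0.00929 in the pre-treatment controls and 0.0319, 0.0300 and 0.0285 in the treated libraries. It was 0.00440, 0.00368 and 0.00364 in the co-treatment controls and 0.00709, 0.0144 and 0.0129 in the treated libraries. In both experiments the treated libraries lay above their controls, by 2.82 times (pre-treatment) and 2.93 times (co-treatment) in the means, with an exact permutation p of 0.1 each and 0.25 after adjustment. The ratio of COL6A1 to COL6A2 overlapped between groups in both experiments (exact permutation p = 0.9 each).

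COL6A5, a low-level alternative to the COL6A3 chain, had 2, 0 and 2 reads in the pre-treatment controls and 37, 28 and 41 reads in the treated libraries. The counts give a ratio of 22.5 over 5 libraries (95% counting interval 6.08 to 188) and 18.3 over 6 (6.96 to 68.6), with an FDR of 0.00824 and 0.266 in edgeR's test. The co-treatment controls held 7, 16 and 3 reads, so reads of this gene were not particular to the treated libraries, where it reached at most 0.518 CPM.

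**Figure D3:**
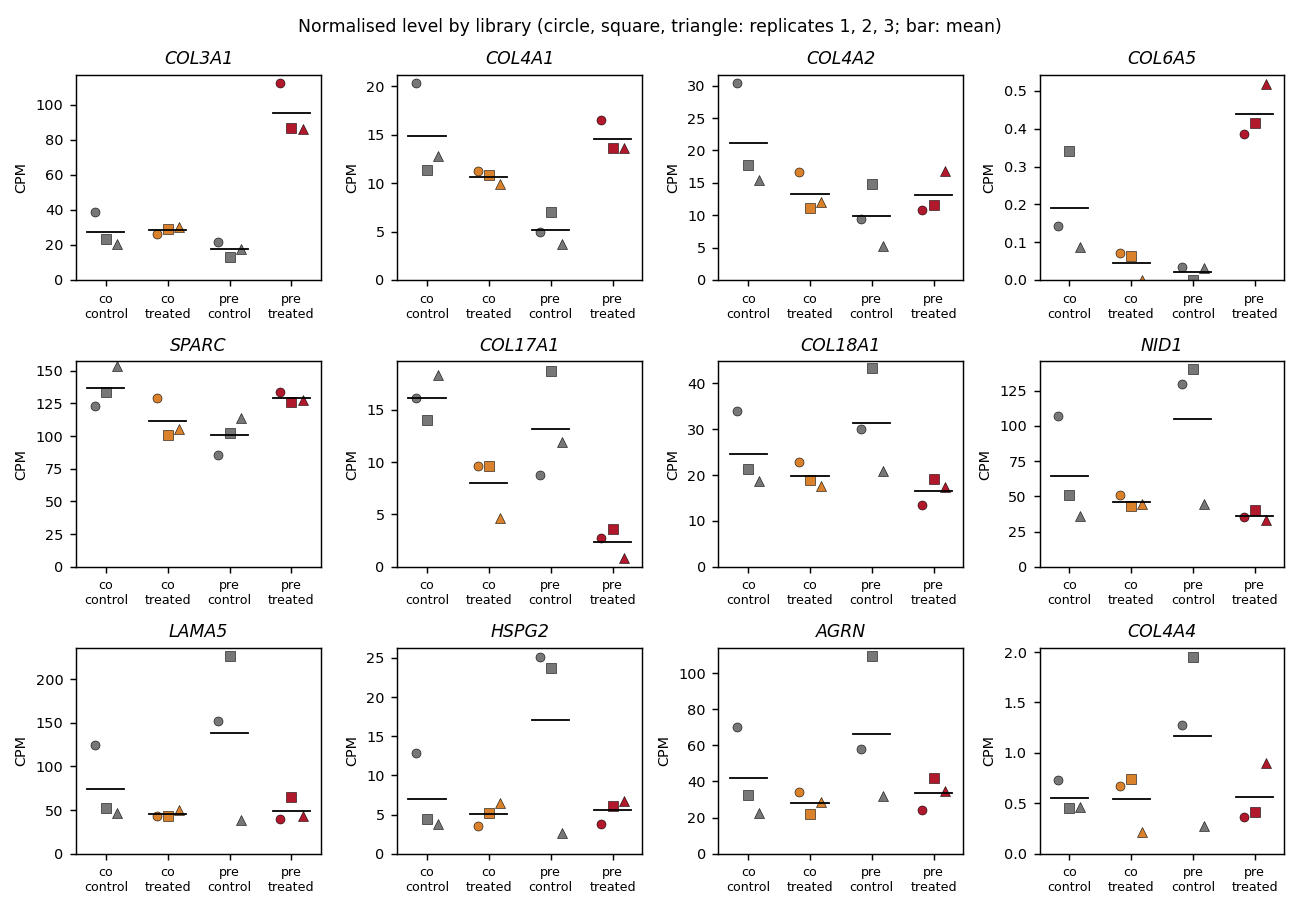
CPM (vertical, each panel with its own linear axis from 0) of 12 members in the 4 groups (horizontal), where circles, squares and triangles are replicates 1, 2 and 3 and bars are group means of 3 libraries. The pre treated points of COL3A1 lie at 85.9 to 112 CPM above all other groups, and for HSPG2, LAMA5, NID1 and AGRN the triangle of pre control 3 lies far below the circle and square of controls 1 and 2.

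The genes called lower over 5 libraries included NID1, HSPG2, LAMA5 and AGRN, whose products link or anchor the basement membrane networks, and their values turned on the control library. NID1 (chr1:236139130-236228409, minus strand), which bridges laminin and type IV collagen, had 130, 140 and 44.4 CPM in the pre-treatment controls and 35.2, 40.2 and 33.1 CPM in the treated libraries. All treated values were below all controls, and control 3 was nearer to the treated libraries than to controls 1 and 2. The log2FC was -1.87 over 5 libraries (SE 0.12, FDR 0.000383 by edgeR), -1.53 over 6 (SE 0.38, FDR 0.320) and -0.30 against control 3 alone (SE 0.17, FDR 0.434).

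HSPG2 (chr1:22148737-22263803, minus strand), perlecan, had 3.79, 6.11 and 6.78 CPM in the treated libraries, between 25.1 and 23.7 CPM in controls 1 and 2 and 2.61 CPM in control 3. Its log2FC was -2.11 over 5 libraries (SE 0.24, FDR 0.00129 by edgeR), -1.62 over 6 (SE 0.68, FDR 0.434) and 1.09 against control 3 alone (SE 0.38, FDR 0.258). Its exons overlap 2122 bases of exons of LDLRAD2 on the other strand, and whether reads were counted by strand is not stated.

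LAMA5 (chr20:60883011-60942368, minus strand) had 152, 226 and 38.1 CPM in the pre-treatment controls and 39.5, 65.6 and 43.4 CPM in the treated libraries. Its log2FC was -1.91 over 5 libraries (SE 0.23, FDR 0.00176 by edgeR), -1.49 over 6 (SE 0.54, FDR 0.365) and 0.37 against control 3 alone (SE 0.28, FDR 0.534). AGRN had 57.7, 109 and 32.0 CPM in the controls and 24.0, 41.8 and 34.9 CPM in the treated libraries, with a log2FC of -1.29 over 5 libraries (SE 0.28, FDR 0.0136), -0.98 over 6 (SE 0.41, FDR 0.430) and 0.06 against control 3 alone (SE 0.28, FDR 0.926), and its call over 5 libraries was lost without control 2 (-0.75). The direction of HSPG2, LAMA5 and AGRN thus differed between the controls they were set against.

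The other genes called lower over 5 libraries were collagen chains. COL17A1 (chr10:105791044-105845638, minus strand) had 8.78, 18.7 and 11.9 CPM in the pre-treatment controls and 2.73, 3.64 and 0.833 CPM in the treated libraries, with no overlap. Its log2FC was -2.49 over 5 libraries (SE 0.53, FDR 0.0120 by edgeR), -2.45 over 6 (SE 0.52, FDR 0.320) and -2.32 against control 3 alone (SE 0.58, FDR 0.201). Without 1 library the log2FC over 5 ranged from -2.92 to -1.84, and without control 2 the call was lost (-1.84, FDR 0.108).

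COL18A1, whose product is the precursor of endostatin, had 30.1, 43.3 and 20.9 CPM in the controls and 13.5, 19.0 and 17.3 CPM in the treated libraries, with a log2FC of -1.12 over 5 libraries (SE 0.20, FDR 0.00640 by edgeR), -0.92 over 6 (SE 0.28, FDR 0.320) and -0.34 against control 3 alone (SE 0.23, FDR 0.493). COL4A4, a chain of the kidney type of collagen IV, stood at 1.28, 1.95 and 0.278 CPM in the controls and at 0.366, 0.414 and 0.896 CPM in the treated libraries. Its log2FC was -1.50 over 5 libraries (SE 0.44, FDR 0.0377), -1.05 over 6 (SE 0.68, FDR 0.593) and 1.00 against control 3 alone (SE 0.68, FDR 0.496). The call of COL4A4 over 5 libraries was lost when any 1 library other than treated 3 was left out (-1.76 to -1.16), that of COL18A1 without control 2 (-0.83) or treated 1 (-0.99), and that of COL6A5 without control 2. Exons of COL18A1 share 1563 bases with exons of SLC19A1 on the other strand.

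**Figure D4:**
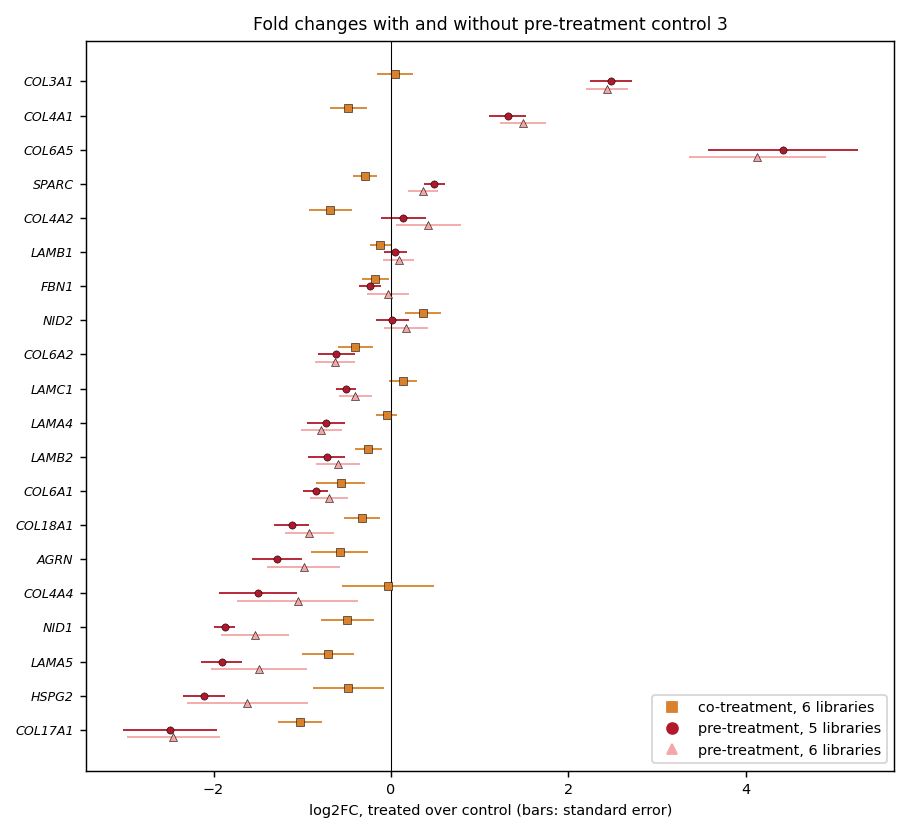
The log2FC of treated over control (horizontal, bars are standard errors) for 20 members in the co-treatment fit (orange squares), the pre-treatment fit over 5 libraries (dark red circles) and over 6 libraries (pink triangles). The pre-treatment points of COL3A1 stand at 2.48 and 2.44 and those of COL17A1 at -2.49 and -2.45, whereas NID1, LAMA5 and HSPG2 shift toward 0 with wider bars when control 3 is included.

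The laminin chains of high level had smaller fold changes. LAMB1 had 385, 371 and 328 CPM in the pre-treatment controls and 365, 352 and 434 CPM in the treated libraries. Its log2FC over 5 libraries was 0.05 (SE 0.13, FDR 0.810 by edgeR). LAMA4 had 115, 91.8 and 109 CPM in the controls and 69.6, 71.3 and 42.5 CPM in the treated libraries, without overlap, at a log2FC of -0.73 over 5 libraries (SE 0.22, FDR 0.0394), -0.78 over 6 (SE 0.23, FDR 0.320) and -0.84 against control 3 alone (SE 0.27, FDR 0.241). LAMB2 and LAMC1 had log2FC values of -0.73 (SE 0.20, FDR 0.0332) and -0.51 (SE 0.12, FDR 0.0168) over 5 libraries, and -0.59 (SE 0.25, FDR 0.427) and -0.40 (SE 0.19, FDR 0.467) over 6. LAMA4, LAMB2 and LAMC1 passed the FDR but not the fold threshold, as did COL6A1 and SPARC. With these, 15 of 53 members passed the FDR alone (28.3%, against 26.1% of all genes), which is close to the background.

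SPARC, whose product binds collagen and is associated with collagen assembly, had 85.5, 102 and 114 CPM in the pre-treatment controls and 134, 126 and 128 CPM in the treated libraries, all higher. Its log2FC was 0.49 over 5 libraries (SE 0.12, FDR 0.0203 by edgeR), 0.36 over 6 (SE 0.17, FDR 0.463) and 0.18 against control 3 alone (SE 0.14, FDR 0.529). The difference from its co-treatment response was 0.72 over 11 libraries (SE 0.19, FDR 0.0369). NID1 was the other member with such a difference over 11 libraries, at -1.44 (SE 0.41, FDR 0.0449). Neither passed over 12 libraries, with FDR 0.511 for SPARC and 0.582 for NID1. Over 11 libraries the call of NID1 was lost when any 1 library other than co-treatment control 1 was left out (-1.52 to -1.15), and that of SPARC was lost when any 1 of 8 was left out (0.63 to 0.92) and with library size only (0.50).

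Other members of the core showed no call in the pre-treatment fits. NID2, FBN1 and LOXL2 had log2FC values of 0.01 (SE 0.19), -0.24 (SE 0.12) and -0.32 (SE 0.20) over 5 libraries. FN1 had 230, 121 and 99.2 CPM in the controls and 139, 127 and 90.3 CPM in the treated libraries, overlapping. Its log2FC over 5 libraries was -0.53 (SE 0.27, FDR 0.171 by edgeR). LOX, which crosslinks collagen and elastin, had 3.44, 2.92 and 1.63 CPM in the controls and 2.65, 2.58 and 4.85 CPM in the treated libraries, overlapping. Its log2FC over 5 libraries was 0.11 (SE 0.32, FDR 0.832). Of the minor laminin chains, LAMA1, LAMB3, LAMB4 and LAMA3 had FDR values above 0.05. LAMB4 had 1.53, 0.793 and 0.756 CPM in the controls and 1.71, 2.28 and 2.84 CPM in the treated libraries, all higher. Its log2FC was 0.99 over 5 libraries (SE 0.36, FDR 0.0749) and 1.15 over 6 (SE 0.39, FDR 0.338). The treated values of LAMA3, at most 0.311 CPM, were also all above the controls.

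**Figure D5:**
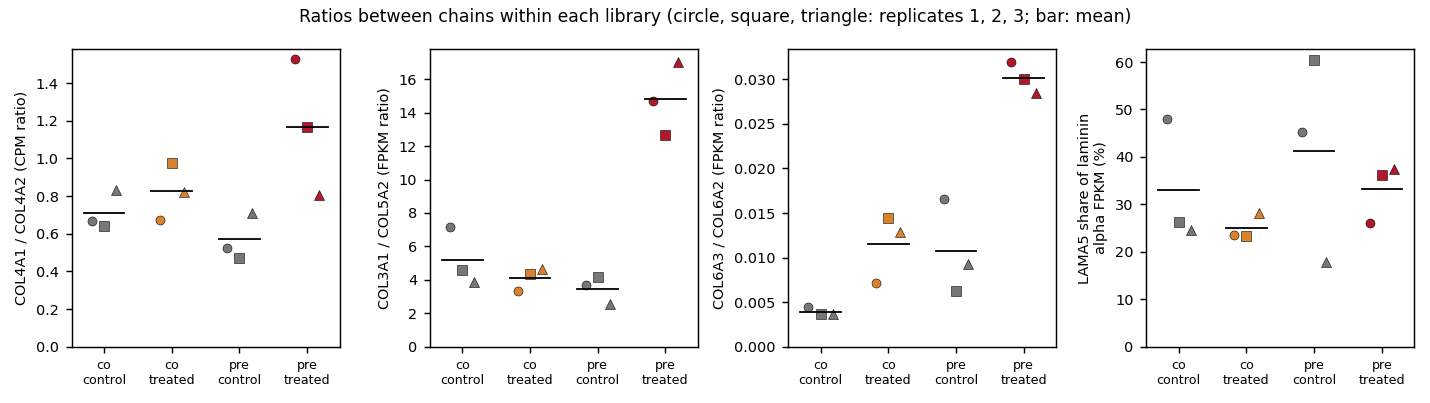
Ratios within each library (vertical, linear from 0) of COL4A1 to COL4A2 (CPM), COL3A1 to COL5A2 (FPKM) and COL6A3 to COL6A2 (FPKM), and the percent of laminin alpha FPKM that was LAMA5, in the 4 groups (horizontal), with replicates 1, 2 and 3 as circles, squares and triangles and means as bars. The pre treated libraries lie above their controls in the first 3 panels, with COL3A1 to COL5A2 at 12.7 to 17.1 against 2.54 to 4.18, and the LAMA5 share overlaps between treated and control libraries in both experiments.

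The machinery that makes, crosslinks, binds and degrades the matrix was read from 5 further lists. In the co-treatment experiment 1 of 73 genes tested from these lists was called (against 0.598% of all genes), the receptor SDC2 (syndecan 2). It had 70.2, 79.7 and 93.9 CPM in the controls and 46.0, 35.5 and 36.1 CPM in the treated libraries (log2FC -1.05, SE 0.15, FDR 0.00749 by edgeR). After pre-treatment its log2FC was 0.79 over 5 libraries (SE 0.30, FDR 0.0842) and 0.49 over 6 (SE 0.33, FDR 0.604). The responses differed by 1.79 over 11 libraries (SE 0.35, FDR 0.0131) and by 1.53 over 12 (SE 0.38, FDR 0.381). None of the 75 listed genes tested over all 6 pre-treatment libraries was called (against 0.0242% of all genes). Over 5 pre-treatment libraries, none of 18 genes of collagen biosynthesis and folding was called (against 11.2% of all genes, median log2FC 0.10 against 0.01). Of 11 genes of procollagen processing, 1 was called higher (against 2.98% of all genes), the protease TLL2, with a log2FC of 1.04 (SE 0.23, FDR 0.0141).

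Among 16 receptors of collagen and laminin, 1 was called higher and 3 lower over 5 libraries (against 2.98% and 8.23% of all genes, median log2FC -0.05 against 0.01). ITGA6, a laminin-binding integrin chain, had 1.01, 0.450 and 0.771 CPM in the pre-treatment controls and 2.30, 2.03 and 1.29 CPM in the treated libraries (log2FC 1.37, SE 0.42, FDR 0.0440 by edgeR). DAG1, dystroglycan, a receptor for laminin, agrin and perlecan, had 103, 132 and 60.8 CPM in the controls and 52.0, 56.8 and 55.0 CPM in the treated libraries (log2FC -1.07, SE 0.13, FDR 0.00160). The agrin receptor LRP4 and the syndecan SDC3 also fell over 5 libraries, by 1.28 and 1.03 on the log2 scale. In control 3, SDC3 was at 34.0 CPM, inside the range of the treated libraries (24.8 to 36.7 CPM). LRP4 was at 27.3 CPM there, above the treated libraries (16.2 to 22.5 CPM). As for NID1, the value of DAG1 in control 3 was close to those of the treated libraries.

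Of 22 other basement membrane and microfibril genes tested over 5 libraries, 2 were called higher and 3 lower (against 2.98% and 8.23% of all genes, median log2FC -0.04 against 0.01). MATN2, a matrilin of the pericellular matrix, had 4.47, 4.14 and 4.46 CPM in the pre-treatment controls and 15.4, 12.2 and 9.44 CPM in the treated libraries, with a log2FC of 1.55 over 5 libraries (SE 0.24, FDR 0.00411 by edgeR) and 1.5 over 6 (SE 0.23, FDR 0.187). SMOC2, a low-level relative of SPARC that passed the filter only through the treated libraries, had 0.0532 and 0.0643 CPM in controls 1 and 2 and 0.293, 0.429 and 0.354 CPM in the treated libraries. FBLN1, LTBP2 and LTBP3 fell by 1.09, 1.17 and 1.25 on the log2 scale over 5 libraries. In control 3, LTBP2 (21.7 CPM) and LTBP3 (41.3 CPM) lay inside the ranges of the treated libraries (18.3 to 23.5 and 30.7 to 44.9 CPM). FBLN1 was at 75.4 CPM there, above the treated libraries (38.2 to 48.9 CPM). Of 9 metalloproteinases and inhibitors, 3 were called lower (against 8.23% of all genes, median log2FC -0.35 against 0.01): the gelatinase MMP2, which cuts type IV collagen, with 393, 472 and 231 CPM in the controls and 211, 217 and 198 CPM in the treated libraries (log2FC -1.02, SE 0.12, FDR 0.00159), and the inhibitors TIMP2 and TIMP4, which fell by 1.11 and 1.16. TIMP4 had 0.370 CPM in control 3, below the treated libraries at 1.01, 1.27 and 0.934 CPM.

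Several markers of other cell states differed after pre-treatment over 5 libraries, and of these only VIM was also called over 6. VIM, a filament protein of mesenchymal cells, had 3.00, 3.97 and 5.06 CPM in the pre-treatment controls and 23.0, 19.6 and 21.9 CPM in the treated libraries (log2FC 2.66 over 5 libraries, FDR 0.000718 by edgeR), and it was also called in co-treatment (1.16, FDR 0.0272). Of the 7 mesenchymal markers, CD44 (1.11, FDR 0.0331) and YAP1 (3.11, FDR 0.0251) were called higher with VIM over 5 libraries and NOTCH2 lower (-1.03, FDR 0.0231). YAP1 had 0.0532 and 0.0857 CPM in controls 1 and 2 and 0.972, 0.207 and 0.581 CPM in the treated libraries. It passed the filter on low counts (0.120 CPM) only through the treated libraries. The sum of the 7 markers, in which NOTCH2 and TWIST1 weigh most, was 628 to 964 CPM in the pre-treatment controls and 440 to 588 CPM in the treated libraries. Of the 6 noradrenergic markers, GATA3 (-1.44, FDR 0.0126) and DBH (-1.72, FDR 0.0259) were called lower, PHOX2A stood at -0.73 (FDR 0.0230), and the sum was 1209 to 2045 CPM in the controls and 823 to 1161 CPM in the treated libraries. Of the 4 fibroblast markers, DCN had 0.585, 0.0857 and 0.617 CPM in the controls and 3.59, 2.61 and 1.68 CPM in the treated libraries (log2FC 2.95 over 5 libraries, FDR 0.0130). Over the same libraries LUM had a log2FC of 0.96 (FDR 0.0605), THY1 of 0.46 (FDR 0.0210) and PDGFRB of -0.70 (FDR 0.00968), none of them called. The list, mostly PDGFRB and THY1, summed to 186 to 210 CPM in the controls and 134 to 164 CPM in the treated libraries. The endothelial marker CDH5 was at 0 in all control libraries. The part of these markers in the collagen changes was not tested.

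Base composition also moved with the comparison. The transcripts of the members above 1 average log2 CPM had a median of 56.1% G and C, against 48.0% over 11834 genes. Across those genes, G and C content correlated with the difference of treated libraries from controls 1 and 2 at r = -0.22, and across 35 members at r = -0.37, which describes genes that share libraries and are not independent replicates. Its part in the lower values of members was not tested.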

How the data were processed

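Counts of reads per gene symbol were deposited by the authors for each of 12 libraries, unnormalized and unfiltered. Per the study's methods and the submitters' processing notes, stranded total RNA libraries depleted of ribosomal RNA were checked with FastQC 0.11.8, trimmed (Cutadapt 2.10), aligned to hg19 (HISAT2 2.1.0) and counted with HTSeq 0.7.2. The annotation version and the strand setting are not given in the sources used here, and 23 of the 66 members have exons overlapping exons of a gene on the other strand. The deposited tables of log2 fold changes, log CPM, p-values and FDR from the authors' own tests were not used.

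The fits used edgeR 4.0.16 with TMM factors, under R 4.3.3 and limma 3.58.1. Genes entered a fit when a number of libraries equal to the smaller group reached the CPM worth 5 reads in the library of lowest depth. Quasi-likelihood tests were adjusted by the Benjamini-Hochberg method over all genes tested, and standard errors are the log2FC divided by the square root of F. Reads not assigned to a gene were left out of library sizes. Positions and transcript lengths come from GENCODE lifted to hg19, in which all 66 members and 33177 of 55765 symbols matched 1 gene. Printed CPM used TMM factors over all 12 libraries. Intervals cover counting error only.

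Named were the members called in any fit, those of the core groups (type IV, XVII and XVIII collagens, laminins, nidogens, proteoglycans, fibrillar and type VI collagens, fibronectin, fibrillins, SPARC and lysyl oxidases) and listed pathway genes called in a treated against control fit. Members, lists and tests were chosen with earlier results of these data known. In simulated counts, 200 genes were changed by 2 on the log2 scale, all drawn from genes above a minimum count. Of these, 98% were called in the co-treatment fit over 21474 genes, 94% over the 5 and 79.5% over the 6 pre-treatment libraries. The rates do not cover members with few reads or with smaller changes. No 2 libraries of a group agreed within counting error, with a chi-square of at least 24.8 per degree of freedom. Alternatives were DESeq2 1.42.0, edgeR's exact test, other scaling factors, small RNA loci left out, no filter, no threshold on fold, a replicate block and each library left out. No other kind of measurement was used here, and some items are not reported here.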

Additional observations from a re-analysis of the deposited data

Results flagged for a closer look

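Responses of 5 members differed between pre-treatment and co-treatment by the test of the difference itself (edgeR's quasi-likelihood test, pre-treatment minus co-treatment log2FC over 11 libraries). The differences were 2.38 for COL3A1, 1.74 for COL4A1, 6.47 for COL6A5, -1.44 for NID1 and 0.72 for SPARC. With pre-treatment control 3 included (12 libraries), only that of COL3A1 passed, at 2.36, and it did not pass when any 1 of 8 libraries was left out or with library size only (2.28). The 6.47 of COL6A5, which was not tested in co-treatment alone and passed the filter mainly through the pre-treated libraries, is a fitted value from few reads, with 2 reads in pre-treatment controls 1 and 2 together, and is no bound on the fold. With control 3 the FDR was 0.172 for COL4A1, 0.256 for COL6A5, 0.582 for NID1 and 0.511 for SPARC.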

How the results depend on the processing

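The number of members called in co-treatment (0) was 1 with small RNA loci left out, 5 without the filter, 3 with DESeq2, 2 with the exact test and 0 to 3 without 1 library (3 without co-treatment control 1). Over 5 pre-treatment libraries (10), it was 10 to 15 under all other settings and 5 to 12 without 1 library (5 without control 2). Over 6 (1), it was 0 with library size only, 5 without the filter, 4 with DESeq2, 5 with the exact test and 0 to 10 without 1 library (10 without control 3). The difference over 11 libraries (5) gave 17 without the filter and 2 to 14 without 1 library (14 without co-treatment control 1), and that over 12 (1) gave 0 with library size only, 3 without the filter, 2 with DESeq2 and 0 to 5 without 1 library. The cause was not tested.

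Against pre-treatment control 3 alone (added after seeing the data), AGRN (0.065), COL4A4 (1.00), HSPG2 (1.09) and LAMA5 (0.37) reversed. Without 1 library, some co-treatment log2FC values reversed, with ranges of -0.88 to 0.019 for AGRN, -0.38 to 0.36 for COL4A4, -0.78 to 0.30 for HSPG2, -0.78 to 0.087 for NID1 and -0.12 to 0.38 for COL3A1, as did the difference of AGRN over 12 libraries (-0.99 to 0.16).

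Replicate numbers were not treated as pairs in the main fits. Deviations of same-numbered libraries from their group means correlated at -0.0626, -0.0733 and -0.0660 in co-treatment. In pre-treatment they correlated at -0.229, 0.0295 and -0.279 over 6 libraries and at 0.0695 and -0.0027 over 5. So few libraries cannot exclude a pairing. With a block for the replicate number, calls were 2, 13, 0, 9 and 0 in the 5 fits, so COL3A1 was not called over 6 or 12 libraries.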

Other observations

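COL26A1, COL23A1 and COL16A1 lie outside the named groups and were chosen after their values were seen. COL26A1, a short collagen, had 9.90, 9.15 and 15.8 CPM in the pre-treatment controls and 8.04, 6.87 and 1.34 CPM in the treated libraries, a log2FC of -1.10 over 6 libraries (SE 0.57, FDR 0.510 by edgeR). COL23A1, a transmembrane collagen, had 37.9, 19.9 and 33.9 CPM in the controls and 27.2, 28.6 and 6.74 CPM in the treated libraries. In both, pre-treatment treated library 3 was the low one, as it was for COL17A1 (0.833 CPM), LAMA4 (42.5 CPM) and LAMB2 (61.5 CPM). COL16A1, a collagen associated with fibrils, had 6.4, 6.43 and 6.48 CPM in the controls and 9.08, 9.43 and 7.46 CPM in the treated libraries, all higher, at a log2FC of 0.43 over 6 libraries (SE 0.20, FDR 0.462).

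Between the experiments, 28 of 47 members tested in both had the same sign of log2FC in co-treatment and in pre-treatment over 5 libraries (59.6%, against 52.8% of 22021 genes), and 26 of 47 over 6 (55.3%, against 54.4% of 21930 genes). The experiments share no libraries.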
